A study of Homo sapiens with 3 samples.

Results

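The regions described here are 5 windows of human chromosome 19 that hold its large clusters of zinc finger genes. Window 1 is chr19:19800000-24600000, window 2 is chr19:36600000-38400000, window 3 is chr19:44300000-45000000, window 4 is chr19:52300000-54100000 and window 5 is chr19:56600000-59100000, close to the end of the long arm. The windows were stated in hg19 and applied to the positions as deposited, since no source used here names the build of the count tables. Counted positions on a strand within 24 nt of the highest summed position were merged into 3′ end sites, and sites with at least 50 counts summed over the 3 libraries were kept. The windows held 317 such sites, of 35234 on the nuclear chromosomes, and chr19 outside the windows held 1471. Membership rests on position and on the summed counts, not on any difference between libraries. Positions are given 1-based, and the strand is read as the strand of the RNA itself, though no source says so.

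The study asked how structures at mRNA 3′ ends bear on mRNA processing and stability. Its samples were HEK293T cells, a widely used line derived from human embryonic kidney, whose polyadenylated 3′ ends were counted by sequencing from the junction of RNA and poly(A) tail. The nucleoside analogue 4-thiouridine (4sU) is built into RNA made while it is in the medium, and RNA that carries it can be captured. Each of 3 groups had a single library: RNA captured after labelling for 30 min (the 30 min capture), RNA captured after 60 min (the 60 min capture), named 4sU 30 min and 4sU 60 min in the plots, and input RNA, called steady state in the design text. The title of the input names the 30 min labelling, while its treatment field reads none. The labels give all 3 groups as the same cell line in the same medium, and name no genetic change. The captures omitted an initial poly(A) selection, and the sources used here do not say whether the input did.

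Zinc finger proteins of this kind are transcription factors whose C2H2 fingers read DNA sequence. Many also carry a KRAB domain, which recruits the co-repressor TRIM28 and, through it, histone methylation that silences transposable elements. Their genes arose largely by tandem duplication, so neighbours in a cluster are often near copies of each other, and mRNAs of transcription factors are known as a short-lived class in mammalian cells. In the GRCh38.p14 gene table of RefSeq, used here for names and gene order only, 262 of the 1451 protein-coding genes of chr19 had symbols that begin with ZNF, ZFP, ZSCAN or ZKSCAN (18.1%). Elsewhere 308 of 18605 genes did (1.66%). On chr19, 212 of them stood in 19 runs of at least 5 adjacent zinc finger genes, and the longest run held 27. They made up 63 of the last 100 protein-coding genes of the chromosome, where TRIM28 itself also lies, as number 4 from the end.

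No annotation or sequence of the build of the tables was used here. No site was therefore assigned to a gene, exon, intron or UTR, no sequence is printed, and the markers of HEK293T cells were not examined. A window also holds genes of other kinds, and near-identical copies can share reads, and how such reads were handled is not stated in the sources used here.

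The libraries held 9652023 nuclear counts for the 30 min capture, 6151986 for the 60 min capture and 32768468 for the input. Levels are given as CPM, counts scaled so that each library has the same nuclear total, with mitochondrial counts, 31.8%, 31.1% and 7.46% of all counts in that order, kept apart. A site was called higher or lower where the ratio of CPM was at least 2-fold and its exact 95% interval, which treats both counts as Poisson, excluded 1. With 1 library per group there is no test across replicates, no p-value, and no check of how far any ratio would vary between cultures. Reads have no molecular identifiers, so the intervals of ratios and the floors cover counting error only. Wilson intervals for shares of sites treat sites as separate observations, though close sites had similar ratios. They do not cover variation between cultures. The 60 min library was the shallowest, which limits the calls it could give. A lower count in bulk RNA cannot tell fewer cells with a transcript from less of it per cell. Both ratios to input share the input library, so the 60 min ratio is no separate check of the 30 min ratio.

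Sites were unevenly spread over the windows. Window 1 held 40 sites over 4.8 Mb, or 8.33 per Mb, and window 2 held 49 sites, or 27.2 per Mb. Windows 3 and 4 held 28 and 53 sites, or 40.0 and 29.4 per Mb. Window 5 held 147 sites over 2.5 Mb, or 58.8 per Mb, and so made up the largest share of the 317. The sites were low in input, with a median of 1.56 CPM against 3.97 for the other sites of chr19. In the 30 min capture the medians were 5.39 and 8.91 CPM, and in the 60 min capture they were 3.41 and 7.96 CPM.

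3′ ends of the zinc finger windows were more often high in newly made RNA than ends elsewhere on the chromosome. After 30 min of labelling, 223 of 317 window sites were called higher than in input (70.3%, Wilson 95% interval 65.1 to 75.1) and 17 were called lower (5.36%). Over all nuclear sites 40.3% were called higher and 16.0% lower, and on the rest of chr19 747 of 1471 sites (50.8%, 48.2 to 53.3) were higher and 148 (10.1%) lower. The median ratio was 3.95-fold in the windows (log2 1.98, quartiles 0.83 to 2.97) against 2.05-fold on the rest of chr19 (log2 1.04) and 1.45-fold over all nuclear sites. The gap between the windows and the rest of chr19 was thus 0.95 in log2 medians. A ratio of at least 4-fold was called at 157 window sites (49.5%), against 29.6% of the other chr19 sites and 23.1% of all nuclear sites. More CPM in the 30 min capture than in input was seen at 279 window sites (88.0%). The like shares were 72.3% of the other chr19 sites and 62.6% of all nuclear sites. At the 2-fold threshold 77 window sites were called in neither direction. Calls at 4-fold and medians both put the windows above their own chromosome, which itself stood above the genome.

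Window 5 carried most of that gap. Its median was 5.85-fold (log2 2.55), and 116 of its 147 sites were higher (78.9%, 71.6 to 84.7) and 5 lower. Window 3 had a median log2 ratio of 1.89 with 19 of 28 sites higher, window 4 had 1.59 with 36 of 53, window 1 had 1.29 with 22 of 40, and window 2 had 1.28 with 30 of 49. The shares called higher in windows 1 to 4 ran from 55.0% to 67.9%. Their Wilson intervals, which treat sites as separate observations, overlapped one another. Without window 5 the remaining 170 sites had a median log2 ratio of 1.43, with 107 higher (62.9%, 55.5 to 69.8) and 12 lower. The gap to the rest of chr19 was then 0.40 in place of 0.95. These 170 sites had a median of 113.5 summed counts, against 278 on the rest of chr19. With 50 to 99 counts, 77 of them had a median of 1.37 (59.7% higher), below the 1.61 (62.6%) of the rest of chr19. With 100 to 199, 200 to 499 and 500 to 1999 counts they were above it, at 1.89, 1.85 and 1.16 against 1.59, 1.06 and 0.86. With at least 2000 counts, 4 sites had -0.82 against 0.03.

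**Figure D1:**
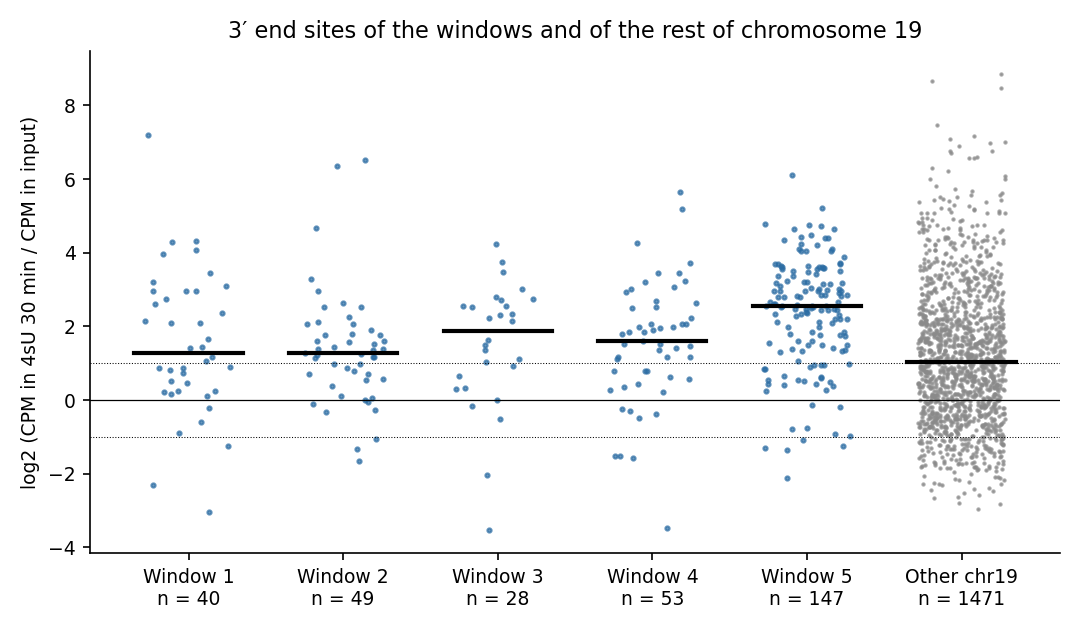
Log2 ratio of CPM in the 30 min capture to CPM in input (vertical axis) for the sites of each window and for the other chr19 sites, with 1 point per site and the median of each set marked. Window 5 has the highest median, 2.55, and the other windows lie between 1.28 and 1.89, against 1.04 for the rest of chr19.

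Within window 5 the median ratio was highest in the middle of the window. From 57.6 to 58.1 Mb, 42 of 46 sites were higher and 0 lower, with a median log2 ratio of 2.81. From 58.1 to 58.6 Mb, 27 of 32 were higher and 1 lower, with a median of 2.96. In the last stretch, from 58.6 to 59.1 Mb, 39 of 58 were higher and 3 lower, and the median was 2.02. The start of the window, from 56.6 to 57.6 Mb, held only 11 sites, of which 8 were higher, and the medians of its 500 kb stretches were both 1.79. In window 2 the stretches differed more in calls: from 36.6 to 37.1 Mb 6 of 17 sites were higher and 3 lower (median 0.70), and from 37.1 to 38.1 Mb 22 of 29 were higher and 0 lower.

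Pooled, the sites next to the windows lay between the windows and the rest of the chromosome in their ratio to input. In the 500 kb on either side, 140 sites had a median log2 ratio of 1.36 and 57.1% were higher, against 1.01 and 50.1% for the 1331 sites farther away. The 17 sites before window 5 had a median of 2.71, the 25 before window 1 had 1.80, and the 11 before and 7 after window 4 had 1.90 and 2.03, each above that of its own window, while the 12 sites after window 2 had a median of -0.87 with 1 called higher. The edges of the windows are thus not the edges of the high ratios at every window. For 60 to 30 min the pooled flanks had a median log2 ratio of -0.16, against -0.20 farther away.

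The most counted sites of the windows did not follow the majority. At chr19:58906170 on the plus strand, the most counted site of all the windows, there were 28370 counts in the 30 min capture, 30343 in the 60 min capture and 183105 in input, or 2939, 4932 and 5588 CPM. It was 1.90-fold lower in the 30 min capture than in input (1.88 to 1.93), just short of a call, and 0.88-fold the input at 60 min. The next in window 5, chr19:59062082 on the plus strand, had 338, 238 and 230 CPM, or 1.47-fold the input at 30 min (1.41 to 1.53). So at both sites the captured and input levels lay within 2-fold.

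In window 2 the most counted site, chr19:36604619 on the minus strand, had 431, 586 and 418 CPM in the 30 min capture, the 60 min capture and input, a ratio of 1.03 at 30 min (0.996 to 1.07). The next, chr19:36641254 on the plus strand, had 119, 202 and 376 CPM, and was called 3.16-fold lower at 30 min (2.97 to 3.36). It also had the lowest ratio of window 2. In window 4, chr19:52729670 on the plus strand had 160, 140 and 197 CPM, 1.23-fold lower at 30 min (1.17 to 1.30), and chr19:52516578 on the minus strand had 13.8, 10.4 and 11.8 CPM. None of these was higher than input by 2-fold.

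The most counted sites of windows 1 and 3 were weaker ends and lay on the captured side. In window 1, chr19:23437858 on the minus strand had 29.5 CPM in the 30 min capture, 24.5 in the 60 min capture and 13.2 in input, or 2.23-fold at 30 min (1.91 to 2.60). At chr19:21702527 on the plus strand the values were 16.1, 21.3 and 8.61 CPM, 1.87-fold at 30 min and 2.47-fold at 60 min. In window 3, chr19:44502477 on the plus strand had 32.8, 26.5 and 5.55 CPM, or 5.91-fold (4.91 to 7.13), and chr19:44416783 on the minus strand had 27.4, 21.5 and 13.4 CPM, or 2.04-fold (1.75 to 2.38). Both captured libraries were above input at each of these 4 sites.

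Over all windows, 12 sites had at least 2000 summed counts, and their median log2 ratio at 30 min was -0.13, near the 0.03 of the 268 such sites on the rest of chr19. The 12 comprised 1 site called higher, 2 called lower and 9 called in neither direction. In the same class 74 of 268 sites on the rest of chr19 (27.6%) and 19.3% of all nuclear sites were called higher, against 8.33% here. The exception was chr19:57949824 on the plus strand, named here after its values were seen, with 3667 counts in the 30 min capture, 1527 in the 60 min capture and 1598 in input. Its levels were 380, 248 and 48.8 CPM, a ratio of 7.79 at 30 min (7.34 to 8.27) and of 5.09 at 60 min (4.74 to 5.46). In CPM of the 30 min capture it was above the most counted site of every window other than windows 2 and 5.

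**Figure D2:**
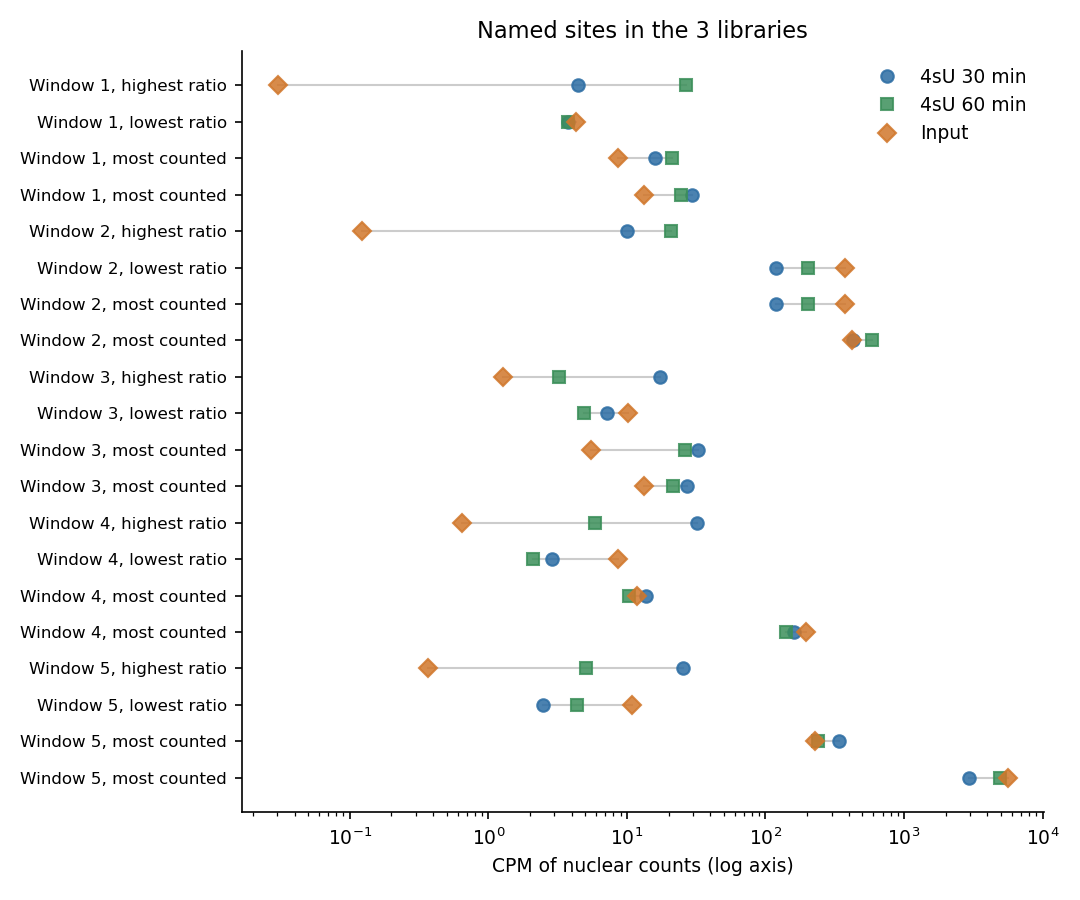
CPM of nuclear counts in the 3 libraries (horizontal log axis) for the 2 most counted sites and the sites with the highest and lowest ratio of the 30 min capture to input in each window; in window 2 the lowest ratio belongs to a most counted site, drawn in both rows. Highest-ratio sites have their input value far to the left, down to 0.0305 CPM, while the most counted sites of windows 2, 4 and 5 have all 3 values within 3.16-fold of each other.

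The same windows held ends that were rare in input and common after 30 min of labelling. The highest ratios below are among sites with at least 200 summed counts. In window 5, chr19:57841619 on the plus strand had 246 counts in the 30 min capture, 31 in the 60 min capture and 12 in input, or 25.5, 5.04 and 0.366 CPM, 69.6-fold at 30 min (39.1 to 136.5). In window 4, chr19:52393713 on the minus strand had 312, 36 and 21 counts, 50.4-fold at 30 min (32.4 to 82.6). In window 3, chr19:44980511 on the minus strand had 167, 20 and 42 counts, 13.5-fold (9.57 to 19.4). These 3 sites were all 5.06- to 5.52-fold lower at 60 than at 30 min, so the 30 min library was the high one at each.

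In windows 1 and 2 the highest ratios had another course. At chr19:23440879 on the minus strand there were 43 counts in the 30 min capture, 164 in the 60 min capture and 1 in input, a ratio of 146 at 30 min with a counting interval from 24.8 to 5898. At chr19:36678557 on the minus strand there were 96, 128 and 4 counts, a ratio of 81.5 (30.8 to 305). Here the 60 min library was the high one. At these sites 91.8% and 99.1% of the summed counts lay at a single position, a feature taken up again below.

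Ends that were low in newly made RNA were few. The lowest ratio of window 5 was at chr19:58770816 on the minus strand, with 24 counts in the 30 min capture, 27 in the 60 min capture and 355 in input, 4.36-fold lower at 30 min (2.88 to 6.89). The lowest of window 4 was at chr19:52824974 on the plus strand, with 28, 13 and 285 counts, 2.998-fold lower (2.03 to 4.59). The lowest of window 3, chr19:44679401 on the plus strand with 69, 30 and 336 counts, was 1.43-fold lower, and that of window 1, chr19:21309542 on the plus strand with 36, 23 and 141 counts, had 3.73 CPM against 4.30 in input. Neither of the last 2 was called at 30 min. Among the sites named for their highest or lowest ratio, low ratios thus reached a few-fold, and high ratios went above 50-fold. The minimum for naming was set on summed counts, which include both compared libraries. The sites with high ratios passed it mainly through the captures, and those with low ratios mainly through input. At chr19:57841619 there were 246 counts in the 30 min capture, 31 in the 60 min capture and 12 in input. How far the minimum shapes these extremes was not tested.

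The ratio of window sites did not decline with their summed counts up to 2000 counts, unlike that of the rest of the chromosome. Among sites with 50 to 99 summed counts the median log2 ratio at 30 min was 1.84 in the windows and 1.61 on the rest of chr19. With 100 to 199 counts it was 2.11 and 1.59, and with 200 to 499 counts 2.07 and 1.06. With 500 to 1999 counts it was 2.56 for 33 window sites, of which 26 were higher, and 0.86 for 306 other chr19 sites, of which 142 were higher. As a description, Spearman's rho between summed counts and the log2 ratio was -0.048 across the 317 window sites and -0.29 across the 1471 others; the points share their libraries, and summed counts include both sides of the ratio. Without window 5 the class of 500 to 1999 counts held 10 sites with a median of 1.16, below that of the classes from 100 to 499 counts in the same windows, which had 1.89 and 1.85. Window 5 alone had 2.90, 2.49, 2.35 and 2.96 from 50 to 99 up to 500 to 1999 counts, with no steady rise. It held 48 of the 125 window sites with 50 to 99 counts and 23 of the 33 with 500 to 1999. The higher pooled median of the latter class thus goes with a larger part of window 5 sites.

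**Figure D3:**
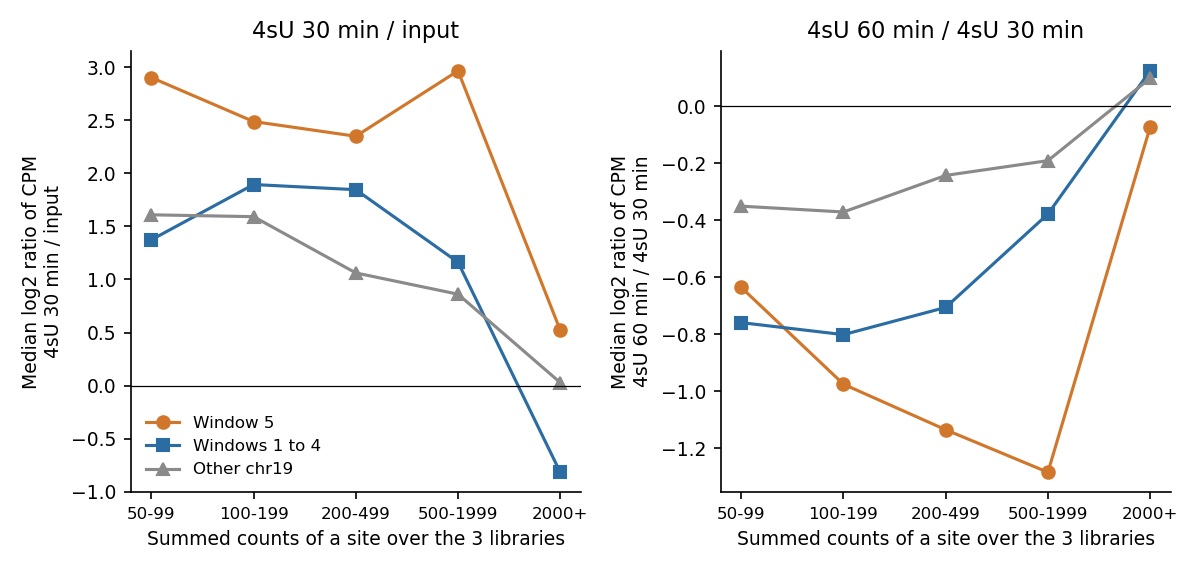
Median log2 ratio of CPM (vertical axes) by class of summed counts, for the 30 min capture to input on the left and the 60 to the 30 min capture on the right, for window 5, windows 1 to 4 and the other chr19 sites. On the left the rest of chr19 declines from 1.61 to 0.03 and window 5 stays between 2.35 and 2.96 up to 1999 counts; on the right window 5 declines to -1.28 at 500 to 1999 counts, and the last class holds only 8 and 4 sites in window 5 and windows 1 to 4.

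The 33 sites with 500 to 1999 counts were the ends of the windows measured best after the most counted 12. Their levels ran from 5.39 to 107.7 CPM in the 30 min capture (median 33.2), from 5.69 to 77.5 in the 60 min capture (median 21.5) and from 1.37 to 35.4 in input (median 8.61). The 23 of them in window 5 had medians of 46.4, 23.7 and 6.29 CPM, and 16 were called at least 4-fold higher at 30 min. The ends described next were named after their values were seen. At chr19:58082935 on the minus strand there were 899 counts in the 30 min capture, 210 in the 60 min capture and 123 in input, or 93.1, 34.1 and 3.75 CPM, 24.8-fold at 30 min (20.5 to 30.2). At chr19:59024899, also on the minus strand, there were 1040, 477 and 294 counts, 12.0-fold (10.5 to 13.7), the highest CPM of the 30 min capture in the class.

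Another 3 ends of the class lay within 3 kb of each other on the plus strand of window 5. At chr19:58133290 there were 805 counts in the 30 min capture, 146 in the 60 min capture and 123 in input, 22.2-fold at 30 min. At chr19:58134721 there were 697, 176 and 184 counts, 12.9-fold. At chr19:58136091 there were 840, 334 and 154 counts, 18.5-fold. All 3 were high in the 30 min capture and low in input, and they differed more at 60 min, which held 0.285-, 0.396- and 0.624-fold the CPM of 30 min. Their gene or genes were not assigned.

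**Figure D4:**
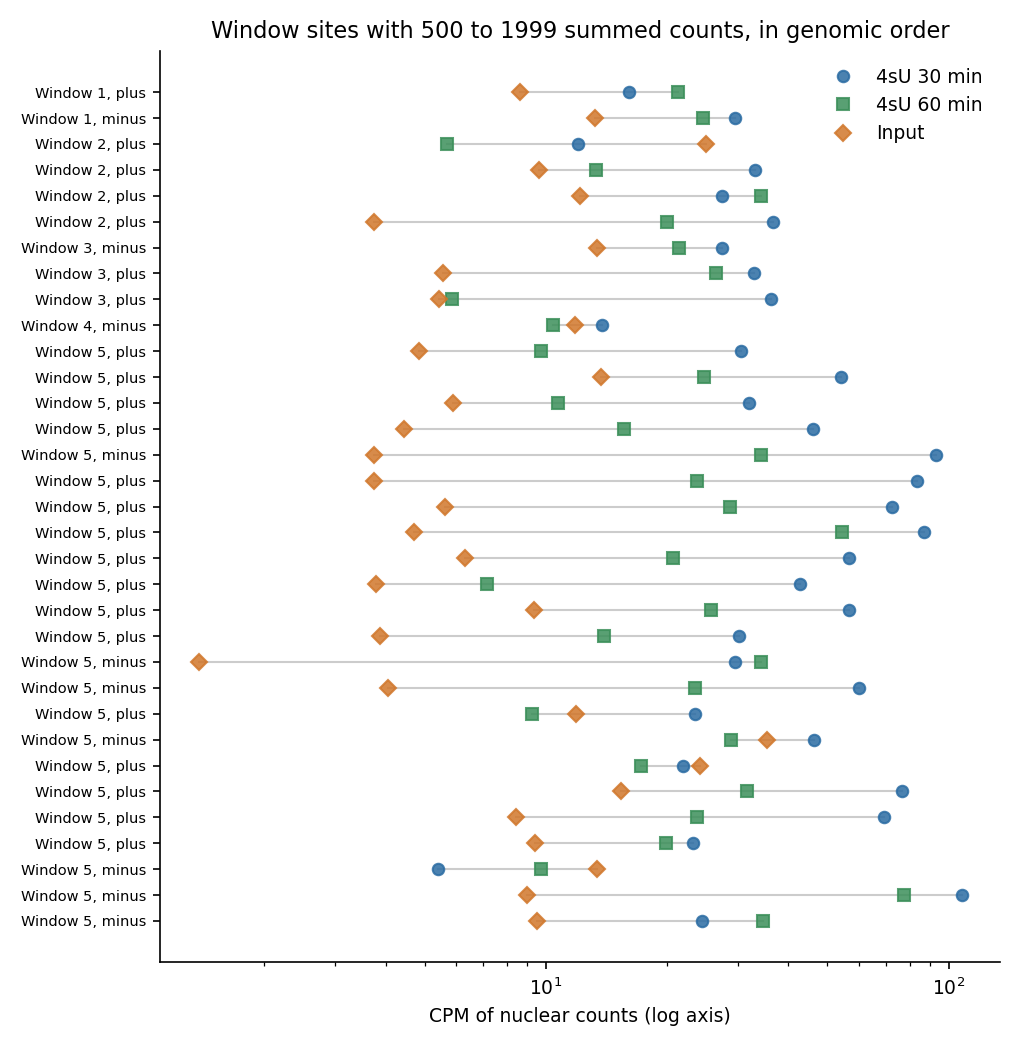
CPM of nuclear counts in the 3 libraries (horizontal log axis) at the 33 window sites with 500 to 1999 summed counts, from window 1 at the top to window 5 at the bottom. The the 30 min capture values lie to the right of the input values by at least 2-fold at 26 sites, and the 4sU 60 min values lie between them at most sites of window 5.

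Sums over each whole window gave another picture than the medians over sites, and in window 5 the sum turned on a single end. With every counted position included, also those at sites below 50 counts, the windows together held 0.88% of nuclear counts in the 30 min capture, 0.94% in the 60 min capture and 0.84% in input, or 1.05-fold the input at 30 min (1.04 to 1.06). The end at chr19:58906170 alone made up 83.8% of the input counts of window 5, 46.2% of its counts at 30 min and 69.3% at 60 min. Without it the windows held 2.07-fold their input share at 30 min (2.05 to 2.10). Window 5 went from 0.954-fold with it to 3.16-fold without it. Window 1 summed to 3.09-fold, window 3 to 2.92-fold and window 4 to 1.82-fold, while window 2, with its most counted ends near or below input, summed to 0.956-fold. The rest of chr19 summed to 1.02-fold with all its sites kept, so its like value is the 1.05-fold of the windows and not the 2.07-fold.

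After 60 min of labelling the windows stood less far above input. There 151 sites were called higher (47.6%, Wilson 42.2 to 53.1) and 25 lower (7.89%), with a median of 1.92-fold (log2 0.94). Over all nuclear sites 29.7% were higher and 21.0% lower, and on the rest of chr19 602 sites were higher (40.9%, 38.4 to 43.5) and 106 lower (7.21%), with a median log2 ratio of 0.70. With mitochondrial counts in the total, 120 window sites were higher and 40 lower, so that higher sites made up 75% of the calls in place of 85.8%. Those 120 were 37.85% of the window sites, against 31.82% of the other chr19 sites with the same total. Window 5 again had the highest median, 1.52, with 91 sites higher and 5 lower. Windows 1 to 4 had medians of 0.74, 0.49, 0.58 and 0.74.

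Without window 5 the windows no longer stood above the rest of the chromosome at 60 min. Their 170 sites had a median log2 ratio of 0.63, which is 0.07 below that of the other chr19 sites, and 60 were called higher (35.3%, 28.5 to 42.7) and 20 lower. The share of higher calls in windows 1 to 4 was thus below the 40.9% of the rest of chr19. The Wilson intervals overlapped, but they treat sites as separate observations, and whether the shares differ was not tested.

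Of the 317 sites, 148 were higher than input at both times and 74 were higher at 30 min and in neither direction at 60 min. Another 14 were lower at both times, 64 were called at neither time, and 3 were called higher at 60 min only. The ratios share the input, and the 60 min library had fewer counts. No such joint counts are given here for sites elsewhere, so these do not show whether the windows stand apart in them. The other 14 sites comprised 10 called lower at 60 min only, 3 called lower at 30 min only, and chr19:24104342 on the plus strand of window 1. That end, named for being the only site with opposite calls, had 35 counts in the 30 min capture, 1 in the 60 min capture and 44 in input. It was 2.70-fold higher than input at 30 min (1.68 to 4.31) and had a single count at 60 min.

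Between the labelling times window sites were more often lower at 60 min than sites elsewhere. At 60 min 110 window sites were called lower than at 30 min (34.7%, 29.7 to 40.1) and 14 higher (4.42%). Over all nuclear sites 18.5% were lower and 5.46% higher, and on the rest of chr19 227 were lower (15.4%, 13.7 to 17.4) and 142 higher (9.65%). The median window site held 0.586-fold its 30 min CPM (log2 -0.77), against 0.874-fold on the rest of chr19 (log2 -0.19) and 0.784-fold over all nuclear sites. Higher sites made up 11.3% of the window calls with nuclear CPM, 23.8% with TMM scaling (24 higher, 77 lower) and 28.4% with median-of-ratios scaling (27 higher, 68 lower), which put the median of all nuclear sites near 0. Under both scalings more window sites were lower than higher, with 24.29% lower under TMM and 21.45% under median-of-ratios scaling. Over all nuclear sites 10.09% were higher and 9.10% lower with TMM, and 11.41% and 7.745% with median-of-ratios scaling.

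This difference was present in windows 1 to 4 as well as in window 5. Window 5 had a median log2 ratio of 60 to 30 min of -0.84, with 61 of 147 sites lower (41.5%, 33.8 to 49.6). Windows 1 to 4 together had -0.74 and 49 of 170 lower (28.8%, 22.5 to 36.0), both still beyond the rest of chr19. Window 3 had the lowest median, -0.90, with 10 of 28 sites lower, and window 1 the highest, -0.31, with 9 of 40 lower. Window 2 had -0.74 with 12 of 49, and window 4 -0.59 with 18 of 53. The share of lower sites grew with the summed counts, from 25.6% of window sites with 50 to 99 counts to 54.5% (18 of 33) with 500 to 1999, while on the rest of chr19 it went from 20.4% to 11.4% (35 of 306). Without window 5 it was 24.7%, 32.6%, 36.1% and 30.0% (3 of 10) from 50 to 99 up to 500 to 1999 counts, with no steady growth. The median log2 ratios of those classes were -0.76, -0.80, -0.71 and -0.38. None of the 12 window sites with at least 2000 counts was lower. Such calls were rare in that class elsewhere too, with 9 of 268 sites on the rest of chr19 (3.36%) and 7.36% of all nuclear sites.

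**Figure D5:**
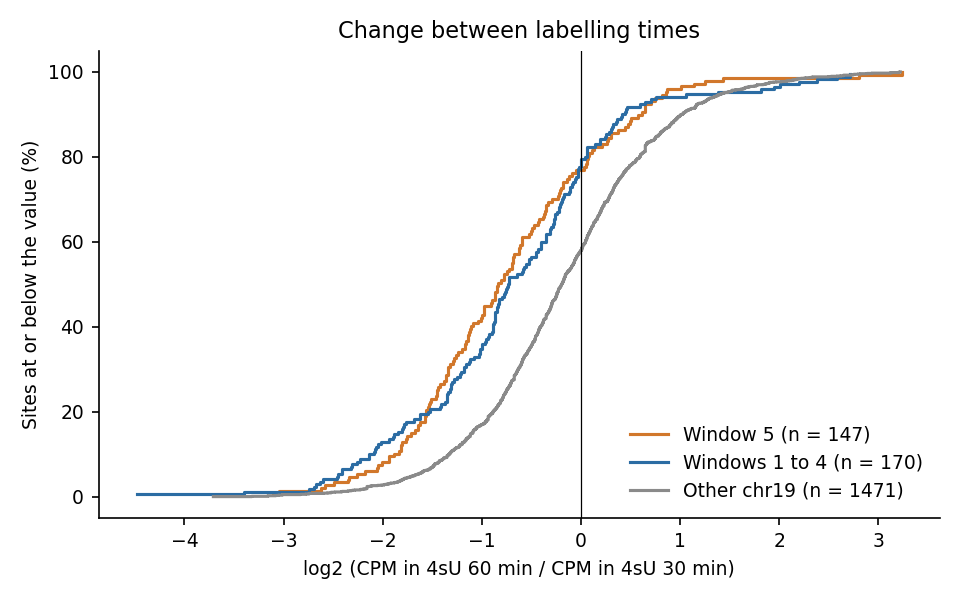
Cumulative share of sites (vertical axis, percent) by log2 ratio of CPM in the 60 min capture to the 30 min capture (horizontal axis) for window 5, windows 1 to 4 and the other chr19 sites. Both window curves lie to the left of the rest of chr19 over most of their range, with medians of -0.84, -0.74 and -0.19.

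Among sites with at least 200 summed counts, the lowest ratio of 60 to 30 min was at chr19:19821282 on the minus strand of window 1, with 149 counts in the 30 min capture, 9 in the 60 min capture and 55 in input, 10.6-fold lower at 60 min (5.41 to 23.5). The next, chr19:37656291 on the minus strand of window 2, had 70, 7 and 145 counts and was 6.37-fold lower (2.94 to 16.4). At chr19:44741420 on the plus strand of window 3 there were 349, 36 and 178 counts, 6.18-fold lower at 60 min (4.38 to 8.97). At the sites in windows 1 and 3 the 60 min CPM was close to that of input, at 0.87- and 1.08-fold. At the site in window 2 it was below input.

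Most of the few window ends that were higher at 60 than at 30 min had nearly all counts at 1 position. At 12 window sites at least 90% of the summed counts lay at a single position, as against a median of 43.8% at the highest position over all window sites. All 12 were called higher than input at 30 min, and 10 of the 14 sites called higher at 60 than at 30 min were among them. Their median log2 ratios were 4.65 for 30 min to input, 6.68 for 60 min to input and 1.98 for 60 to 30 min, against 1.85, 0.85 and -0.82 for the 305 wider sites. Such sites were 3.79% of the window sites and 3.81% of the other chr19 sites, so the shares were close. On the rest of chr19 42 of 56 were higher at 60 than at 30 min, as were 734 of 1256 over all nuclear sites. Most sites higher at 60 min were wider there, since these were 42 of 142 on the rest of chr19 and 734 of 1925 over all nuclear sites. Of the 56 narrow sites on the rest of chr19, 49 were higher than input at 30 min (87.5%), as were 83.0% of such sites over all chromosomes. The medians of the 56 were 4.45, 6.54 and 1.82. In the windows 10 of the 12 had at most 5 counts in input and so passed the minimum mainly through the captures.

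At chr19:22552112 on the plus strand of window 1 there were 58 counts in the 30 min capture, 243 in the 60 min capture and 10 in input, or 6.01, 39.5 and 0.305 CPM, 6.57-fold higher at 60 than at 30 min (4.92 to 8.91). The site at chr19:23440879, given above, was 5.98-fold higher at 60 min, and that at chr19:36678557 was 2.09-fold higher. Of the 12, 4 had 0 counts in input, where the floor of 3 counts is 0.0916 CPM. With input put at that floor, the ratio of the 30 min capture to input was 36.2-fold at chr19:53997995 and 24.9-fold at chr19:58378251. It was 12.4-fold at chr19:58903305 and 11.3-fold at chr19:58419771. The lower bounds of the exact intervals at these sites were 27.8-, 18.6-, 8.52- and 7.61-fold in that order. The counts of these sites were 32, 22, 11 and 10 in the 30 min capture and 82, 38, 49 and 60 in the 60 min capture. What these narrow ends are was not tested, as no sequence was used. Without them the windows held 4 sites higher and 110 lower at 60 than at 30 min.

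Ends close to each other had similar ratios. For 79 pairs of adjacent window sites on the same strand with a gap of at most 2000 nt, the median absolute difference in the log2 ratio of 30 min to input was 0.63. For 93 pairs with gaps over 2000 and up to 20000 nt it was 1.41, and for 143 pairs farther apart 1.60. The rest of chr19 had 0.80, 1.65 and 1.85 for the same classes. For 16 pairs within 2000 nt on opposite strands the window value was 1.05. Sites of close pairs may be ends of the same gene, so the 317 sites are fewer than 317 separate observations.

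The windows differed in strand. In window 5, 106 sites lay on the plus and 41 on the minus strand, while windows 1 to 4 held 85 on each. Over all windows the median log2 ratio at 30 min was 2.21 for plus and 1.70 for minus sites. In windows 1 to 4 it was 1.35 and 1.59, the other way round. The spread of counts around a site was alike, with a median SD of positions of 2.86 nt in the windows and 2.58 nt on the rest of chr19.

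Alternative 3′ ends were examined in groups of same-strand sites no more than 2000 nt apart. The windows held 93 such groups, and 44 of them (47.3%) had at least 3 ends, against 32.2% on the rest of chr19 and 40.9% over all 7737 nuclear groups. The median distance between the outermost ends was 1089 nt, against 642 nt on the rest of chr19. In the 30 min capture, the share of counts at the last end downstream exceeded that in input by at least 10 points, with a Newcombe 95% interval that excluded 0, in 10 groups (10.8%) and lower in 14 (15.1%). Over all nuclear groups the shares were 18.0% and 10.5%, and on the rest of chr19 19.5% and 10.3%. The median change was 0.74 points in the windows and 2.48 points on the rest of chr19. Grouping within 500 nt gave -0.29 points and grouping within 5000 nt gave -0.35 points. The sign of the median thus depended on the grouping. The calls had more groups down than up in the windows under all 3. Within 500 nt there were 5 up (7.35%) and 11 down (16.2%), against 12.5% and 10.7% over all nuclear groups. Within 5000 nt there were 16 up (14.7%) and 26 down (23.9%), against 21.6% and 11.9%. On the rest of chr19 more groups were up than down under all 3.

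At 60 min against input the downstream share was higher in 16 of the 93 groups (17.2%) and lower in 13 (13.98%), against 19.3% and 10.8% over all nuclear groups, with a median change of 2.58 points. Grouping within 500 nt gave -2.36 points, with 6 groups higher (8.82%) and 10 lower (14.7%). Over all nuclear groups the shares within 500 nt were 12.5% and 11.3%. Grouping within 5000 nt gave 1.69 points, with 27 groups higher (24.8%) and 19 lower (17.4%). Over all nuclear groups these shares were 24.3% and 11.6%, so the share of higher groups was close to that of the windows. Groups can join ends of different genes, above all where similar genes stand close together in the same direction.

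The largest rise of a downstream end was on the minus strand of window 1, from chr19:23442763 to chr19:23440879, the narrow end already described. It took 43 of 63 counts in the 30 min capture (68.3%), 164 of 178 in the 60 min capture (92.1%) and 1 of 70 in input (1.43%). The next was on the plus strand of window 2, from chr19:37071240 to chr19:37072758, where the downstream end took 28 of 41 counts in the 30 min capture (68.3%), 23 of 30 in the 60 min capture (76.7%) and 20 of 73 in input (27.4%). Both captured libraries were on the same side of the input in each group.

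The largest fall was on the plus strand of window 1, from chr19:21690192 to chr19:21690464, where the downstream end took 50 of 76 counts in the 30 min capture (65.8%), 16 of 24 in the 60 min capture (66.7%) and 38 of 39 in input (97.4%). On the minus strand of window 5, from chr19:58638357 to chr19:58637619, it took 4 of 53 (7.55%), 3 of 12 (25.0%) and 13 of 35 (37.1%). The last group rests on 12 counts at 60 min, and its change from input, -12.1 points, had an interval from -35.2 to 19.4.

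Near the minimum of 50 summed counts the values changed little in direction. The 21 window sites with 50 to 54 counts had a median log2 ratio of 30 min to input of 2.38, and the 31 sites with 45 to 49 counts, just outside, had 1.97.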

How the data were processed

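The deposited tables, 1 per library, list whole-number read counts by stranded genome position, not normalized by the authors. Cutadapt and Bowtie are named per the submitters' processing notes; the sources used here do not give versions, the build or the handling of reads with several matches. Positions within 24 nt of the highest summed position of a strand were merged into sites, and sites needed 50 summed counts. CPM are relative to the nuclear total of a library. Counts of 0 were put at a floor of 3 counts. Ends within a group needed 20 counts and 5% of the group, and a group 100 counts. Intervals are exact for ratios, Wilson for shares and Newcombe for differences of shares, at 95%. Scaling alternatives used edgeR 4.0.16 and DESeq2 1.42.0, and the rest Python 3.11.15, pandas 2.3.3 and scipy 1.17.1. The calls were also run on simulated Poisson counts, which the intervals assume as well. That run held no variation between cultures and so cannot check the calls against it.

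Sites were named by a rule: in each window the 2 most counted sites and the highest and lowest ratio of 4sU 30 min to input among sites with at least 200 summed counts and at least 20 in a compared library, then over all windows the 3 highest and 3 lowest ratios of 60 to 30 min among these, and the 2 groups of ends with the largest rise and fall. Others are marked as named after their values were seen. The windows, rule and lists were chosen with earlier results of these data known. Planned analyses of genes, cofactor genes, poly(A) signals and A-rich sequence were not run, because no genome or annotation of the build was used.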

Additional observations from a re-analysis of the deposited data

Results flagged for a closer look

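Counts in the windows at sites under the minimum of 50 summed counts, which entered no comparison of sites, made up a larger part of the captured libraries than of the input. They were 10.39% of the window counts in the 30 min capture (Wilson 95% interval 10.2 to 10.6) and 8.155% in the 60 min capture (7.93 to 8.38), against 3.03% in input (2.96 to 3.09). The input percentage is lowered by the end at chr19:58906170, which holds 66.3% of the input counts of the windows. On the rest of chr19 the values were 4.30%, 4.996% and 1.19%. Within window 1 the values were 39.1%, 41.4% and 37.8%, close to each other. The part of depth in these values was not tested.

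The effects against input at 30 and 60 min had opposite calls at 1 window site, chr19:24104342 on the plus strand, with 35 counts in the 30 min capture, 1 in the 60 min capture and 44 in input. Its ratio of 60 to 30 min, computed directly, was 22.3-fold lower with a counting interval from 3.75 to 906.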

How the results depend on the processing

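Over the alternatives run, the gap in log2 medians between windows and the rest of chr19 ran from 0.40 to 1.84 for 30 min to input and from -0.67 to -0.53 for 60 to 30 min (18 alternatives each, of which the 3 scalings cannot move a difference of medians), and the window share called was above that of the rest of chr19 in 19 of 19 for both. For 60 min to input the gap ran from -0.07 to 0.65 and the share was above in 17 of 19. Leaving out window 5 gave -0.07253 there, a reversal, with 35.29% higher; it gave a gap of 0.3954 and 62.94% higher at 30 min, and 28.82% lower at 60 against 30 min. The percent higher at 30 min was 60.88 with chrM in the total, 59.31 with TMM, 58.36 with median-of-ratios scaling and 49.53 with calls at 4-fold. At 60 min it was 37.85 with chrM in the total, 40.59 with a minimum of 20 summed counts, 56.67 at a mean CPM of 10 or more and 27.44 at 4-fold. The percent lower at 60 against 30 min was 24.29 with TMM, 21.45 with median-of-ratios scaling, 26.83, 40.62 and 42.86 with minimums of 20, 100 and 200 counts, 45.0 at a mean CPM of 10 or more and 10.73 at 4-fold. The gap at 30 min was 1.219 with a minimum of 100 counts and 1.843 at a mean CPM of 10 or more, and the gap at 60 min with the latter 0.6495. TMM moved the median log2 ratio at 30 min to 0.7697 in window 2, 1.085 in window 4 and 2.039 in window 5, as it moved the median of all sites by -0.51. With a minimum mean CPM of 10 the median was 3.53 in window 1, 0.6061 in window 2 and 2.564 in window 3. These rest on only 6, 8 and 3 sites, against 40, 49 and 28 in the main setting. The median change of the downstream share reversed with gaps of at most 500 nt, to -0.2899 and -2.361 points at 30 and 60 min against input and -0.2662 points between the times, and with gaps of at most 5000 nt to -0.3467 points at 30 min; the cause was not tested. No paired analysis was possible because each group has 1 library. The 60 min library, with 6151986 nuclear counts, was the shallowest and limits the calls it could give.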
